A study of Bos taurus with 8 samples.

Results

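The genes CTLA4, ICOS, CD28, CD40LG, PDCD1 and TIGIT encode receptors and a ligand that raise or lower the response of T cells. They were taken by gene name from the scRNA-seq tables of bovine peripheral blood mononuclear cells, where the 6 genes filled 7 of 21861 listed genes, because CD40LG is listed under 2 Ensembl identifiers whose counts were added. Their levels are described in 3 classes of T cells, which are cells with at least 1 UMI of CD3D, CD3E or CD3G and of 1 class marker only. CD4 cells had a CD4 UMI, CD8B cells a CD8B UMI, and WC1 cells a UMI of a WC1 gene, the family of scavenger receptors that marks a population of bovine γδ T cells. Of 28484 cells kept, 7093 fell into these classes, with 4353 CD4, 1872 CD8B and 868 WC1 cells.

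Whole blood of 4 lactating female Holstein cattle aged 2 years was pooled and divided into 4 parts. A part had no LPS, and the others were kept with 2 µg/ml lipopolysaccharide (LPS), a component of the outer membrane of Gram-negative bacteria, at 37 °C for 2 h, 4 h or 8 h. Mononuclear cells were isolated after the treatment, so the T cells met LPS together with the other cells of the blood, and no incubation time is given for the part without LPS. There was 1 scRNA-seq and 1 scATAC-seq library per treatment, so neither animals nor cultures were replicated, no test between treatments was possible, and treatment, incubation and library cannot be told apart. Intervals are at the 95% level and hold counting error only, and every ratio to no LPS shares the same no LPS library.

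A T cell needs a signal through its antigen receptor and a costimulatory signal to become active. CD28 gives that costimulatory signal when it binds CD80 or CD86 on an antigen-presenting cell, ICOS is a related receptor that appears on activated and follicular helper T cells, and CD40LG on helper T cells binds CD40 on B cells and myeloid cells. CTLA4 competes with CD28 for the same ligands, PDCD1 (PD-1) is bound by CD274 (PD-L1) and TIGIT by PVR, and these 3 receptors restrain the response. CD28, CTLA4 and ICOS neighbour each other in the RefSeq annotation of the ARS-UCD2.0 assembly.

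The libraries held 30902952 to 63770426 UMIs, and 3411 to 9865 cells were kept in each. The classes held 1175, 1505, 1152 and 521 CD4 cells in the order no LPS, 2 h, 4 h and 8 h, 495, 628, 502 and 247 CD8B cells, and 278, 267, 198 and 125 WC1 cells. The median depth of CD4 cells was 4490 UMIs without LPS and 5917 at 8 h, and that of WC1 cells 3830 and 5256. The classes fitted their labels, with CD8A, the partner chain of CD8B, at 102 to 126 CPM (UMIs scaled to a class total of 1e6) in CD8B cells and at most 5.43 in the other classes, and GATA3, a T cell transcription factor taken here as a WC1 marker, at 251 to 426 CPM in WC1 cells and 64.4 to 92.2 in CD4 cells. The sum of 6 B cell markers, all detected, was 532 to 664 CPM in WC1 cells, 66.4 to 83.4 in CD4 cells and 1903 to 2367 in the B gate (no CD3 UMI, at least 2 UMIs of MS4A1, CD79A and CD79B). Most of the sum in WC1 cells was BLK, at 398 to 536 CPM there and 22.2 to 35.1 in the B gate, and the other 5 markers summed to 76 to 146 CPM in WC1 cells. The 3 neutrophil markers CSF3R, S100A8 and S100A9 summed to 242, 238, 79.1 and 326 CPM in CD4 cells, lowest at 4 h. In WC1 cells they summed to 300, 201, 14.5 and 111 CPM, also lowest at 4 h. Most of these sums was S100A8 and S100A9, which were each at 3399 to 5356 CPM in the monocyte gate defined below. CSF3R was not lowest at 4 h, with 0.52, 0.80, 1.83 and 0.31 CPM in CD4 cells and 0.84, 0, 1.81 and 2.7 in WC1 cells. Monocyte markers summed to 252, 210, 160 and 168 CPM in CD4 cells. The part of RNA of neutrophils and monocytes in the results was not tested. Between 31 and 60 barcodes of a library were shared with another library, none of them with an equal UMI total.

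Among the 3 classes all 6 genes were highest in CD4 cells in every library, TIGIT in each library and CD40LG in WC1 cells at 4 h within counting error. Their summed level was 206, 218, 262 and 229 CPM in CD4 cells in the order no LPS, 2 h, 4 h and 8 h, 61.2, 58.5, 65.1 and 66.8 in CD8B cells, and 54.5, 90.6, 101 and 69.8 in WC1 cells. Counts of UMIs at the 3′ end are not divided by gene length, and the order of genes is that of detected UMIs. It was ICOS, PDCD1, CTLA4, CD28, CD40LG and TIGIT in CD4 cells at all 4 times. The intervals of neighbouring genes in this order were apart, except those of PDCD1 and CTLA4, which overlapped at 4 h, and those of CD28 and CD40LG, which overlapped in all libraries but the one at 2 h. Levels in the 12 class and library sums are drawn in the plot of levels by class and time.

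**Figure D1:**
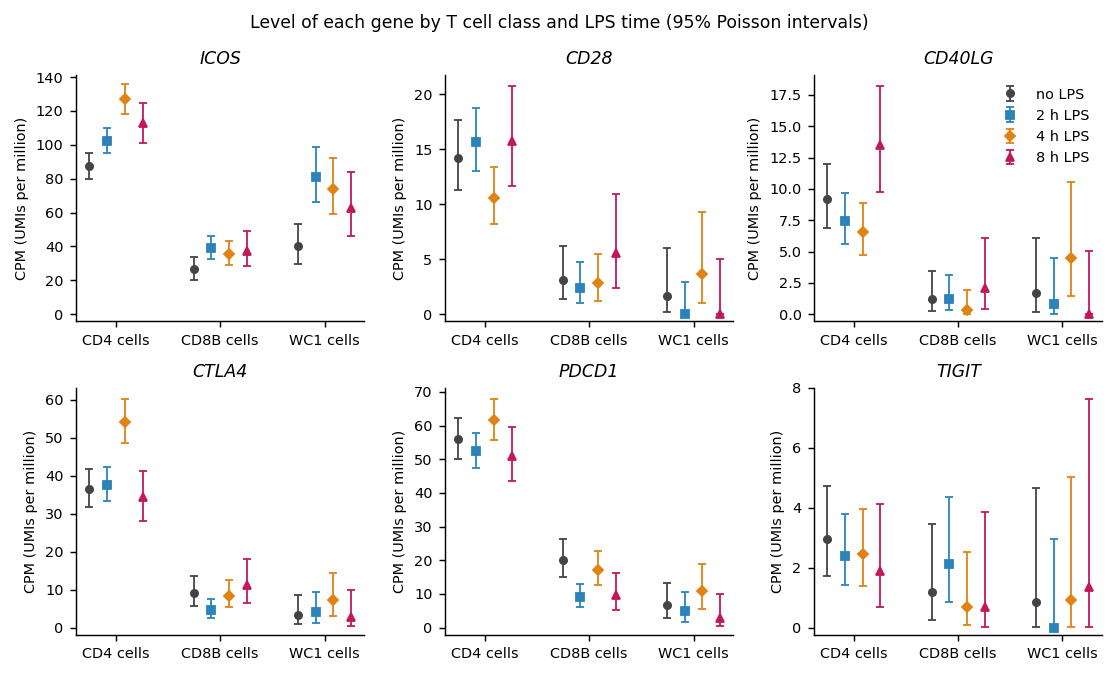
Level of each gene in CPM (UMIs scaled to a class total of 1e6, linear axes that differ by gene) in CD4, CD8B and WC1 cells, with 1 point per library and 95% Poisson intervals. CD4 cells are highest throughout, ICOS in WC1 cells goes from 40.3 CPM without LPS to 81.0 at 2 h, and CTLA4 in CD4 cells reaches 54.2 at 4 h.

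ICOS was the most abundant of the genes and the one whose level with LPS lay above that without LPS in all 3 classes. In CD4 cells its level was 87.4 CPM with no LPS added (80.0–95.4), 102 at 2 h (95.2–110), 127 at 4 h (118–136), then 113 at 8 h (101–125). The interval without LPS touched that at 2 h and lay below those at 4 h and 8 h. As log2 ratios of CPM + 1 to no LPS, ICOS in CD4 cells stood at 0.22 (0.06–0.39), 0.53 (0.37–0.70) and 0.36 (0.17–0.56). The largest of these is a 1.45-fold difference, so no ratio reached 2-fold. The level of CD4 itself, which defines the class, was 370, 342, 310 and 317 CPM in the same order.

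In WC1 cells ICOS had 48, 101, 82 and 46 UMIs, which is 40.3 CPM with no LPS added (29.7–53.4), 81.0 at 2 h (66.0–98.4), 74.2 at 4 h (59.0–92.1), then 62.9 at 8 h (46.1–83.9). The intervals at 2 h and 4 h lay above that without LPS, while the one at 8 h overlapped it. The log2 ratios were 0.99 (0.50–1.54), 0.87 (0.35–1.43) and 0.63 (0.03–1.26), and the 2 h ratio was 1.99-fold, just inside the 2-fold limit. The B cell markers other than BLK summed to 128, 146, 76 and 134 CPM in these cells, and the B gate had 0.398 to 1.51 CPM of ICOS. The WC1 genes that define the class were at 400 CPM without LPS and at 304, 247 and 286 with it, and the part of this in the result was not tested.

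After thinning every cell to 1000 UMIs to make depths equal, 6 of 276 WC1 cells without LPS held an ICOS UMI (2.17%, 0.802%–4.67%), against 24 of 266 at 2 h (9.02%, 5.87%–13.1%), 16 of 198 at 4 h (8.08%, 4.69%–12.8%), then 4 of 124 at 8 h (3.23%, 0.886%–8.05%). The 2 h and 4 h intervals lay above that without LPS. This order rests on the depth: thinned to 2000 UMIs the shares were 6.69% (4.01%–10.4%), 12.1% (8.35%–16.7%), 10.8% (6.79%–16.0%) and 14% (8.40%–21.5%), with overlapping intervals and 8 h the highest, and unthinned they were 13.7%, 26.2%, 25.8% and 26.4%. In the B gate, whose median depth was 3829 to 5914 UMIs against 3830 to 5256 in WC1 cells, the share was 0.0532% to 0.168%. In CD4 cells the share with an ICOS UMI was 9.03%, 10.4%, 11.1% and 11.6%, and these 4 intervals overlapped. More cells with ICOS and more ICOS RNA per cell cannot be told apart in the CPM.

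In CD8B cells ICOS had 26.4 CPM with no LPS added (20.5–33.6), 39.1 at 2 h (32.7–46.5), 35.7 at 4 h (29.1–43.4), then 37.6 at 8 h (28.2–49.0). All 3 LPS libraries were higher, but the intervals overlapped, and of the log2 ratios of 0.55 (0.13–1.01), 0.42 (-0.02 to 0.90) and 0.49 (-0.04 to 1.04) only the one at 2 h had an interval above 0. ICOS was the only gene of the 6 whose interval lay above 0 in every library for WC1 against CD8B cells, with log2 ratios of 0.59 (0.04–1.16), 1.03 (0.66–1.44), 1.03 (0.62–1.49) and 0.73 (0.14–1.34) in the order of the libraries.

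CD28, the receptor of the classical costimulatory signal, had 14.2 CPM in CD4 cells with no LPS added (11.3–17.6), 15.7 at 2 h (13–18.8), 10.5 at 4 h (8.20–13.3), then 15.7 at 8 h (11.7–20.7). The 4 h library was the lowest, and its interval overlapped the others. The log2 ratio of 4 h to 2 h was -0.53 (-1.02 to -0.13) and that of 8 h to 4 h was 0.54 (0.02–1.12), while all 3 ratios to no LPS had intervals that included 0. CD8B cells had 8 CD28 UMIs in each of the 4 libraries. WC1 cells had 2, 0, 4 and 0, and a count of 0 allows up to 2.41 CPM at 2 h and 4.10 at 8 h.

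CD40LG, the ligand through which helper T cells act on B cells, had 9.18 CPM in CD4 cells with no LPS added (6.88–12), 7.44 at 2 h (5.62–9.66), 6.57 at 4 h (4.75–8.85), then 13.5 at 8 h (9.79–18.2). The 8 h library was the highest, with an interval above those at 2 h and 4 h and overlapping that without LPS. The ratio of 8 h to 4 h was 0.94 on the log2 scale (0.40–1.69). At 8 h, however, a single cell held 13 of the 43 UMIs, and with the highest cell of each library left out, a check that was added with the data in view, that ratio was 0.53 (-0.14 to 1.31). The identifiers ENSBTAG00000017843 and ENSBTAG00000051078 had 24 and 29 UMIs without LPS, 26 and 30 at 2 h, and 26 and 17 at both 4 h and 8 h, and how reads were divided between them is not known. CD8B cells had 1 to 4 CD40LG UMIs per library and WC1 cells 0 to 5.

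CTLA4, the inhibitory receptor for CD80 and CD86, had 36.5 CPM in CD4 cells with no LPS added (31.8–41.8), 37.6 at 2 h (33.4–42.2), 54.2 at 4 h (48.7–60.2), then 34.3 at 8 h (28.2–41.4). The 4 h interval stood above the other three. The log2 ratio to no LPS was 0.04 at 2 h, 0.56 at 4 h (0.32–0.82), then -0.09 at 8 h. A single CD4 cell at 4 h held 89 of the 355 CTLA4 UMIs. This cell had 6962 UMIs in all, a depth at percentile 76.4 of its class, with 23 IL2RA, 11 ICOS and 2 CD4 UMIs and none of FOXP3, PDCD1, MS4A1 or CD14. With the highest cell of each library left out, the levels were 31.7, 36.4, 40.7 and 32.8 CPM, the ratio of 4 h to no LPS was 0.35 (0.08–0.64), and that of 4 h to 2 h went from 0.52 (0.30–0.76) to 0.15 (-0.09 to 0.41). The share of thinned CD4 cells with a CTLA4 UMI was 3.70%, 4.23%, 5.0% and 3.48%, with intervals that overlapped, against 0% to 0.168% in the B gate, where 0% allows up to 0.171%.

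CTLA4 was lower elsewhere. CD8B cells had 23, 15, 24 and 16 CTLA4 UMIs, or 9.08, 4.55, 8.40 and 11.1 CPM, with overlapping intervals, and WC1 cells had 4, 5, 8 and 2 UMIs. Outside the T cell classes, the monocyte gate (no CD3 UMI, at least 2 UMIs of CD14, CSF1R and VCAN) had 8.51, 6.93, 9.92 and 4.45 CPM of CTLA4. Without LPS those were 58 CTLA4 UMIs spread over 51 of 742 cells, beside 10 ICOS UMIs and no CD28 UMI, which allows up to 0.440 CPM, in the same gate. The B gate had 0.239 to 0.558 CPM of CTLA4, and the NK gate (no CD3 UMI, at least 1 NCR1 UMI, none of these gates sharing cells) had no CTLA4 UMI in any library, which allows up to 5.77 to 11.7 CPM.

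PDCD1, the receptor PD-1, had 55.9 CPM in CD4 cells with no LPS added (50.0–62.4), 52.4 at 2 h (47.3–57.8), 61.6 at 4 h (55.7–67.9), then 51.0 at 8 h (43.4–59.5). These intervals overlapped, and the 3 log2 ratios to no LPS of -0.09, 0.14 and -0.13 had intervals that included 0. Between LPS libraries, 4 h stood above 2 h by 0.23 (0.03–0.44) and 8 h against 4 h was at -0.27 (-0.54 to -0.01). In CD8B cells PDCD1 had 20.1 CPM with no LPS added (15–26.5), 9.09 at 2 h (6.14–13), 17.2 at 4 h (12.7–22.7), then 9.74 at 8 h (5.32–16.3). The 2 h library was below the one without LPS with intervals apart, and the 8 h one was as low with overlapping intervals. By share of thinned CD8B cells with a PDCD1 UMI, no LPS and 2 h overlapped, at 2.46% (1.28%–4.3%) and 0.644% (0.176%–1.64%). Thinned to 2000 UMIs these shares were 3.18% (1.79%–5.19%) and 1.51% (0.694%–2.85%), also overlapping.

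The PDCD1 ratios in CD8B cells were -1.07 at 2 h (-1.85 to -0.47), -0.22 at 4 h (-0.83 to 0.36), then -0.98 at 8 h (-2.02 to -0.17) on the log2 scale. They rest on 51, 30, 49 and 14 UMIs, and at 8 h 1 cell held 7 of the 14. With the highest cells left out the ratios were -1.04 and -1.67 at 2 h and 8 h. The 6 NK cell markers in CD8B cells summed to 631 CPM with no LPS added, 611 at 2 h, 665 at 4 h, then 216 at 8 h, but its members moved apart. GNLY, a cytotoxic granule protein, had 296, 386, 422 and 79.3 CPM, and the other 5 markers summed to 335, 225, 243 and 136 CPM. Of these, NKG7, PRF1, KLRD1 and KLRF1 were lower in each LPS library. NCR1 was lower at 8 h only, with 4.34, 4.55, 4.90 and 1.39 CPM. PDCD1 in the NK gate was 36.5, 47.6, 34.6 and 15.6 CPM on 4 to 23 UMIs, and the part of these cells in the result was not tested. With no upper limit of 3000 genes per cell the 2 h ratio was -0.25.

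TIGIT, the receptor for PVR, was near the limit of detection, with 17, 18, 16 and 6 UMIs in CD4 cells, or 2.94, 2.39, 2.44 and 1.89 CPM. These levels overlapped one another. The B gate had 2.15, 0.956, 1.83 and 2.26 CPM of TIGIT, overlapping those of CD4 cells in every library, so a level of TIGIT particular to T cells was not detectable at this depth. CD8B cells had 1 to 7 TIGIT UMIs per library and WC1 cells at most 1.

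The rule for a large difference was at least 2-fold with at least 20 UMIs over the 2 libraries. Of the 18 pairs of a gene and a class, 10, 11 and 10 had that many UMIs at 2 h, 4 h and 8 h against no LPS. None was 2-fold higher, and 1 was 2-fold lower, PDCD1 in CD8B cells at 2 h. Among all genes the share at least 2-fold higher was 1.17%, 1.53% and 0.83% in CD4 cells at the 3 times, 1.39%, 1.43% and 1.78% in CD8B cells, and 2.97%, 4.36% and 2.66% in WC1 cells. The share at least 2-fold lower was 0.537%, 1.6% and 1.33% in CD4 cells, 1.09%, 1.29% and 2.43% in CD8B cells, and 3%, 4.09% and 2.28% in WC1 cells. The median log2 ratio of the 6 genes in CD4 cells was -0.03, -0.03 and 0.02, beside -0.02, -0.01 and 0.01 over all genes with 20 UMIs. In CD8B cells 3 of the genes had 20 UMIs, with medians of -0.86, -0.10 and 0.27, beside 0.01, 0.02 and 0.02 over all genes. In WC1 cells ICOS alone had 20 UMIs at 2 h and 8 h, and PDCD1 joined it at 4 h with a log2 ratio of 0.62 (-0.72 to 2.19). The ratios with their intervals are drawn in the plot of ratios to no LPS.

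**Figure D2:**
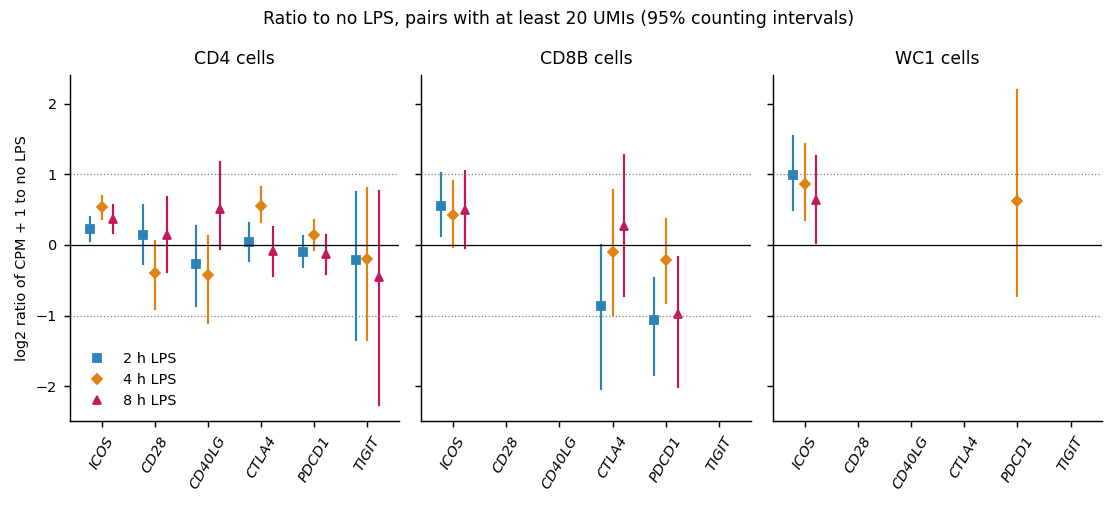
Log2 ratio of CPM + 1 to the no LPS library in CD4, CD8B and WC1 cells, for pairs with at least 20 UMIs, with points for the ratio, lines for the 95% counting interval and dotted lines at 2-fold. The points of ICOS lie above 0 in each class and time, though its intervals in CD8B cells at 4 h and 8 h include 0. PDCD1 in CD8B cells at 2 h, at -1.07, is the only point past a dotted line.

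More pairs differed by 2-fold between classes than between times. Against CD4 cells of the same library, CD8B cells were at least 2-fold lower for 5 of 6, 5 of 6, 5 of 5 and 5 of 5 genes with 20 UMIs, in the order no LPS, 2 h, 4 h and 8 h, where 3.92%, 3.85%, 4.5% and 4.73% of all genes were. WC1 cells were at least 2-fold lower for 5 of 5, 4 of 5, 3 of 5 and 4 of 5, where 6.52%, 7.47%, 7.15% and 6.52% of all genes were. CTLA4, for example, was 3.73-fold lower in CD8B than in CD4 cells without LPS and 6.96-fold lower at 2 h. PDCD1 was 2.70-fold lower without LPS and 5.29-fold at 2 h. ICOS was 2.14-fold lower in WC1 than in CD4 cells without LPS but 1.26-fold, 1.70-fold and 1.78-fold with LPS, so past 2-fold in the no LPS library only. TIGIT in CD8B cells did not differ from CD4 cells beyond counting error in the 2 libraries where it had 20 UMIs.

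T cells with no class marker detected, 1049 to 3195 per library, had levels between those of CD4 and CD8B cells for ICOS at 56.0, 72.5, 82.1 and 84.5 CPM, for CTLA4 at 22.4, 26.0, 25.4 and 25.4, and for PDCD1 at 22.1, 20.2, 17.5 and 21.5. ICOS was again higher in each LPS library. These cells held 41.2% to 45.8% of all ICOS UMIs, and CD4 cells 35.1% to 40.0%. For TIGIT 20.0% to 42.9% of the UMIs were in the B gate.

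**Figure D3:**
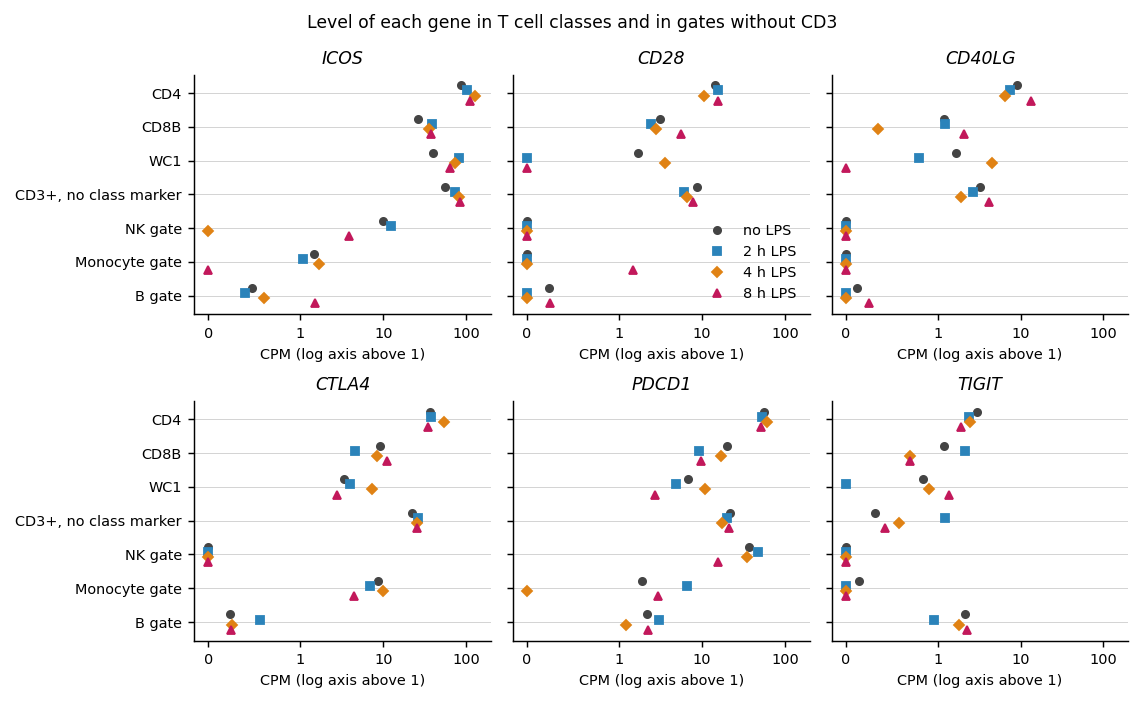
Level of each gene in CPM (axis linear to 1 and logarithmic above) in the T cell classes, in T cells with no class marker, and in the NK, monocyte and B gates, with 1 point per library. All but TIGIT lie highest in CD4 cells, and CTLA4 also appears at 4.45 to 9.92 CPM in the monocyte gate and PDCD1 at 15.6 to 47.6 in the NK gate. By Poisson intervals, not drawn here, TIGIT in the B gate overlaps CD4 cells. PDCD1 in the NK gate overlaps them without LPS and at 2 h.

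Most CD4 cells held no UMI of any of the 6 genes at equal depth. After thinning, 17.4%, 19.8%, 21.8% and 20.9% of CD4 cells had at least 1 of them and 1.81%, 2.15%, 1.84% and 2.32% at least 2. In CD8B cells 5.34%, 5.15%, 6.28% and 5.42% had at least 1, in WC1 cells 3.26%, 9.77%, 10.6% and 4.84%, and in the B gate 0.372% to 0.626%. Among CTLA4, ICOS and PDCD1, no pair was detected together in CD4 cells more or less often than in cells without the partner beyond the exact binomial intervals, in any library.

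CTLA4 was compared with IL2RA, the α chain of the interleukin 2 receptor that marks activated and regulatory T cells. Of thinned CD4 cells with a CTLA4 UMI, 6 of 43 without LPS had an IL2RA UMI (14%, 5.30%–27.9%), 17 of 63 at 2 h (27.0%, 16.6%–39.7%), 14 of 57 at 4 h (24.6%, 14.1%–37.8%), then 7 of 18 at 8 h (38.9%, 17.3%–64.3%). Of those without a CTLA4 UMI the shares were 3.66% (2.64%–4.93%), 7.57% (6.25%–9.07%), 8.86% (7.24%–10.7%) and 5.61% (3.76%–8.01%). The intervals were apart in all 4 libraries after thinning. Without thinning they were apart at 2 h only, at 34.8% (27.9%–42.3%) against 18.8% (16.7%–21.0%), and overlapped in the other libraries, at 20.0% against 13%, 34.0% against 26.0% and 25.7% against 19.0%, with the higher share in cells with CTLA4 each time. The thinned cells with a CTLA4 UMI had medians of 3737 to 4977 UMIs in full, against 4524 to 5972 for the rest. For ICOS and PDCD1 the intervals of cells with and without a UMI overlapped in all 4.

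**Figure D4:**
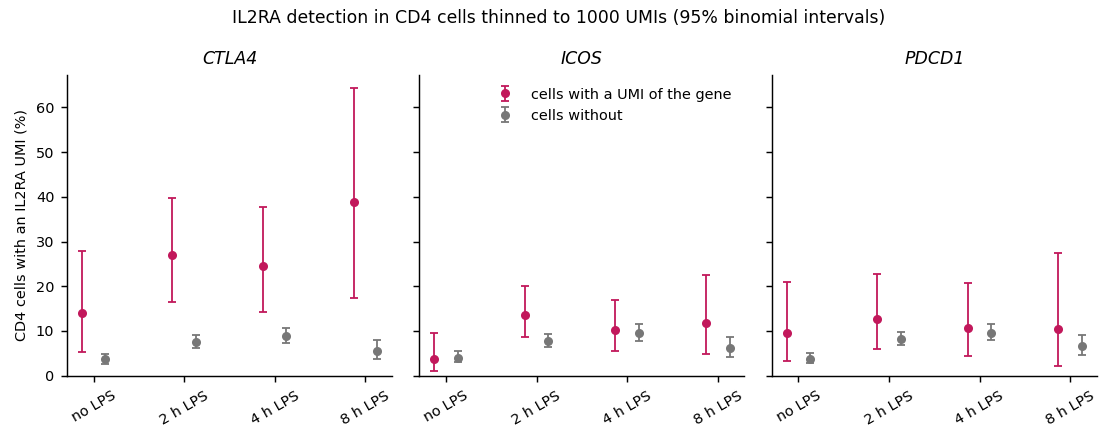
Share of CD4 cells, thinned to 1000 UMIs, with an IL2RA UMI among cells with and without a UMI of CTLA4, ICOS or PDCD1, by library, with 95% exact binomial intervals. At this depth the intervals are apart for CTLA4 in all 4 libraries (14% against 3.66% without LPS) and overlap for ICOS and PDCD1.

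Summed over CD4 cells at full depth, CTLA4 had 38.7, 71.4, 102 and 45.0 CPM in cells with an IL2RA UMI, in the order no LPS, 2 h, 4 h and 8 h, and 36.2, 26.9, 32.0 and 31.0 in the others. The intervals were apart at 2 h and 4 h, and at 4 h they remained apart without the cell of 89 UMIs, at 59.4 CPM (49.4–70.9) against 32.0 (27.0–37.7). ICOS had 131 and 93.4 CPM in cells with and without IL2RA at 2 h and 147 and 118 at 4 h, intervals apart, and overlapping ones without LPS and at 8 h. FOXP3, the defining factor of regulatory T cells, was found in only 8, 10, 7 and 4 CD4 cells. These held 7, 4, 19 and 6 CTLA4 UMIs, which lay in only 3, 2, 3 and 3 of the cells. That is 193, 75.7, 545 and 211 CPM against 35.6, 37.3, 51.6 and 32.7 in the remaining CD4 cells. The CPM intervals were apart except at 2 h. By share of cells with a CTLA4 UMI the intervals were apart at 8 h only, at 75% (19.4%–99.4%) against 13.7% (10.9%–17%).

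The level of PDCD1 in CPM differed by LEF1, a factor of naive T cells. It had 41.5, 50.6, 37.8 and 36.8 CPM in CD4 cells with a LEF1 UMI, in the same order, and 64.9, 53.3, 77.2 and 65.9 in those without one. PDCD1 was lower in cells with LEF1 in all 4 libraries, with intervals apart in all but that at 2 h. CD40LG had 3.61 CPM with LEF1 and 12.7 without it in the no LPS library, and the intervals overlapped at the other times. In the no LPS library the shares of cells with a CD40LG UMI, 1.9% and 4.37%, had overlapping intervals. CTLA4 with LEF1 at 4 h, at 74.4 against 41.0 CPM, includes the cell of 89 UMIs, which had 2 LEF1 UMIs.

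The other lists are described by the same 2-fold rule, with the shares of all genes given above as their background. Of other costimulatory receptors in CD4 cells, 9 had 20 UMIs at 2 h and 4 h and 8 at 8 h, with 3, 3 and 0 higher, 0, 1 and 0 lower, and medians of 0.03, 0.20 and 0.12 on the log2 scale. TNFRSF18 (GITR) had 49.9 CPM without LPS, 193 at 2 h and 156 at 4 h, log2 ratios of 1.93 (1.77–2.14) and 1.63 (1.46–1.84). TNFRSF4 (OX40), a costimulatory receptor of the same family, had 54.7, 199 and 207 CPM, ratios of 1.85 and 1.90. The third was TNFRSF9 (4-1BB), at 2 h with 24 of 32 UMIs in 1 cell, and without the highest cells it did not pass at 2 h or 4 h. CRTAM was lower at 4 h, at 4.43 against 12.3 CPM.

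TNFRSF18 was also higher in the other classes, at 65.2 against 25.7 CPM in CD8B cells at 2 h and at 739 and 553 against 121 in WC1 cells at 2 h and 4 h (log2 ratios of 2.60 and 2.18). TNFRSF4 in WC1 cells had 9.23, 38.5, 30.8 and 21.9 CPM, on 11 to 48 UMIs. So of the WC1 list, 2 of 7, 2 of 7 and 1 of 6 receptors were higher at 2 h, 4 h and 8 h and 0, 0 and 1 lower, with medians of 0.61, 0.47 and 0.38. In CD8B cells 1, 0 and 0 of 9 were higher and 0, 2 and 1 lower.

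Of other inhibitory receptors, 7 had 20 UMIs in CD4 cells and none passed the rule at 2 h, 4 h or 8 h, with medians of -0.56, -0.19 and -0.06. None of 6, 5 and 5 passed in CD8B cells. In WC1 cells 4 had 20 UMIs each time, with 0, 1 and 0 higher and 0, 2 and 1 lower. LAG3, an inhibitory receptor that binds MHC class II, had 73.0 CPM in WC1 cells without LPS, 30.8 at 4 h and 20.5 at 8 h, log2 ratios of -1.22 (-1.86 to -0.66) and -1.78 (-2.73 to -1.03). VSIR was lower and CD96 higher at 4 h, at 4.52 against 13.4 and 34.4 against 15.9 CPM.

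Of 20 genes of proximal signalling, which carry the signal of the antigen receptor and of CD28, all had 20 UMIs in CD4 cells and none passed the rule, with medians of -0.12, -0.07 and 0.08. CD8B cells had 0 higher and 0, 1 and 0 lower of 20, the lower one being PTPN22 at 4 h. WC1 cells had 1 of 19, 0 of 18 and 1 of 18 higher and none lower, GRAP2 at 2 h on 20 UMIs and SH2D1A at 8 h, with 15 of 31 UMIs in 1 cell.

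Of 20 genes of the response to the antigen receptor and of activation, CD4 cells had 6 of 18, 8 of 17 and 3 of 17 higher at 2 h, 4 h and 8 h and 0, 1 and 0 lower, with medians of 0.49, 0.50 and 0.44. IRF4, a factor of T cell activation, had 4.50 CPM in CD4 cells with no LPS added, 21.5 at 2 h, 32.5 at 4 h, then 17.3 at 8 h. BHLHE40 had 16.1, 54.0, 65.1 and 38.1 CPM, and TNFAIP3, an inhibitor of NF-κB, had 36.2 without LPS and 122 at 2 h. BATF had 95.8 CPM without LPS and 282 at 2 h, and TOX2 4.16 and, at 4 h, 14.5. The lower one was EGR1 at 4 h, at 2.14 against 8.48 CPM, where 1 cell without LPS held 16 of 49 UMIs.

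WC1 cells had 7 of 11, 7 of 12 and 4 of 12 of the activation genes higher and 0, 1 and 0 lower, with medians of 1.27, 1.24 and 0.81, against 0.36, 0.50 and 0.02 in CD8B cells. CD69, an early activation antigen, had 5.87, 38.5, 39.8 and 52.0 CPM in WC1 cells, with 21 of 38 UMIs in 1 cell at 8 h. BATF had 67.1 CPM without LPS, 323 at 2 h and 309 at 4 h. CD8B cells had 3 of 16, 1 of 15 and 0 of 15 higher and 1, 2 and 1 lower, with NFKBIA, the inhibitor of NF-κB, at 129, 478 and 270 CPM in the no LPS, 2 h and 4 h libraries.

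Of genes of regulatory and follicular helper T cells, 8 had 20 UMIs in CD4 cells each time, with 1, 0 and 0 higher and none lower. IL10, an inhibitory cytokine, was that gene, at 7.79 CPM without LPS and 21.9 at 2 h. CD8B cells had 1 of 6, 0 of 6 and 1 of 5 higher and 0, 0 and 1 lower, and WC1 cells 2 of 6, 2 of 7 and 1 of 4 higher and none lower. Of 7 naive T cell genes in CD4 cells none was higher and 0, 1 and 0 were lower, KLF2 at 4 h (3.67 against 8.48 CPM). None passed in CD8B cells, and in WC1 cells at 4 h CCR7 was higher, with 83 of 184 UMIs in 1 cell.

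The ligands of these receptors were followed in the B and monocyte gates. CD40, the receptor for CD40LG, had 78.9 CPM in the B gate with no LPS added, 466 at 2 h, 262 at 4 h, then 133 at 8 h, and 164, 322, 194 and 165 in the monocyte gate. CD274 (PD-L1), the ligand of PDCD1, had 63.1, 216, 198 and 138 CPM in the monocyte gate, and PVR, the ligand of TIGIT, had 150, 570, 358 and 295. CD274 and PVR in the monocyte gate were above the level without LPS in each LPS library, with intervals apart, on 86 to 742 cells. Both were highest at 2 h, where the interval of CD274 overlapped that at 4 h. PDCD1LG2, NECTIN2 and NECTIN3, also in the ligand list, did not follow this order. PDCD1LG2 had 0.44, 1.07, 3.31 and 4.45 CPM in the same gate, on 3 or 4 UMIs each time. NECTIN2 had 6.90, 6.66, 7.44 and 4.45 CPM and NECTIN3 3.52, 0.80, 2.48 and 0. The cells of the monocyte gate themselves differed between libraries, with median depths of 9486, 12049, 9739 and 2802 UMIs. VCAN, which helps define the gate, had 1407, 710, 332 and 608 CPM in it, and CSF3R 7.78, 28.8, 84.4 and 20.8. The part of these differences in the ligand levels was not tested.

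The ligands of CD28 and CTLA4 were lower in the B and monocyte gates than the levels of CD40, CD274 and PVR given above. CD86 had 19.8, 19.2, 19.9 and 17.8 CPM in the monocyte gate and CD80 6.09, 8.76, 5.74 and 5.77 in the B gate, with overlapping intervals over the 4 libraries. In the CD4 cells themselves 7 genes of the ligand list had 20 UMIs, with 3, 1 and 0 higher. CD274 was at 11.7, CD40 at 21.5 and PVR at 21.4 CPM at 2 h against 3.29, 7.62 and 8.14 without LPS, beside B cell markers at 72.4 against 82.6 and monocyte markers at 210 against 252 CPM in these cells, and the part of RNA of other cells in these 3 ratios was not tested. In CD8B cells 3 of 5, 1 of 4 and 0 of 2 were higher and none lower, and in WC1 cells 2 of 4, 0 of 2 and 0 of 1 were higher and 1, 0 and 0 lower.

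The genes whose levels were most like each member were found by Pearson correlation of log2(CPM + 1) over the 12 class and library sums among 7644 genes with at least 200 UMIs, a description without a test in which sums share libraries and classes. For ICOS they were ZC3H12D (0.98), C3H1orf54 (0.97) and IRF1 (0.97), for CTLA4 ATPAF2 (0.97), LBH (0.97) and IL21R (0.96), and for PDCD1 CTLA4 (0.96), LNPEP (0.96) and ENSBTAG00000024657 (0.96). For CD28 they were PIK3C3 (0.96), SRI (0.96) and C18H16orf87 (0.95), and for CD40LG CDK2AP1 (0.94), JAG1 (0.92) and C18H16orf87 (0.92). TIGIT, with 73 UMIs over all 12 sums, was nearest to HLF (0.91), NPAT (0.90) and CBY1 (0.90).

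In the scATAC-seq tables, counts are given per gene and barcode, and the rule that assigns them to genes is not given in the sources used here. The counts summed to 975012 without LPS and to 30250143, 26837579 and 11957904 at 2 h, 4 h and 8 h, so the library without LPS was too shallow to compare. Of the values above 0, 88.7% to 93.8% were even, so counts do not arrive singly and the Poisson intervals are too narrow. Of the 6 genes 3, 5, 5 and 3 were listed in the 4 libraries. Without LPS CD28 had 16 counts in 9 barcodes, ICOS 9 in 5 and TIGIT 2 in 1.

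CD40LG was listed in none of the libraries. Counts are not divided by gene length, so levels are compared within a gene only. CD28 had 51.4 CPM at 2 h (48.9–54.0), 46.1 at 4 h (43.6–48.8), then 43.2 at 8 h (39.5–47.0). ICOS had 35.2 CPM at 2 h (33.2–37.4), 37.7 at 4 h (35.4–40.1), then 28.3 at 8 h (25.3–31.4). CTLA4 had 24.2 (22.4–26.0), 27.7 (25.7–29.7) and 19.2 (16.8–21.9) in the same order. Over all barcodes ICOS and CTLA4 were lowest at 8 h, with log2 ratios to 4 h of -0.40 (-0.60 to -0.24) and -0.50 (-0.74 to -0.31). TIGIT had 7.47 and 7.12 CPM at 2 h and 4 h.

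PDCD1 had 1011 counts in 423 of 4172 barcodes at 2 h, 33.4 CPM (31.4–35.5), and 332 counts in 156 of 3231 barcodes at 4 h, 12.4 CPM (11.1–13.8). The log2 ratio was -1.36 (-1.62 to -1.25), and the share of barcodes with a count went from 10.1% (9.24%–11.1%) to 4.83% (4.12%–5.62%). At 8 h PDCD1 was not listed. It was the 1 of 5 genes at least 2-fold lower at 4 h against 2 h, where 1.46% of all genes were, and none was at least 2-fold higher, where 0.457% were. At 8 h none of 3 was at least 2-fold lower, where 5.65% of all genes were against 4 h and 6.69% against 2 h. PDCD1 RNA in CD4 cells was 52.4 CPM at 2 h and 61.6 at 4 h.

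No CD3 gene was listed in these tables, so T cell nuclei were taken, after the data were seen, as those with a count at 3 or more of 10 other T cell genes, 1837, 1248 and 512 nuclei at 2 h, 4 h and 8 h. In them PDCD1 had 37.4 CPM at 2 h (34.8–40.2) and 14.1 at 4 h (12.4–15.9), a log2 ratio of -1.35, where 1.54% of all genes were at least 2-fold lower. In nuclei with no count at any of the 10 genes PDCD1 had 18.7 CPM at 2 h (13.9–24.6) and 7.50 at 4 h (4.44–11.8), so it was lower at 4 h inside and outside the T cell gene nuclei. The T cell gene nuclei were 1248 of 3231 barcodes at 4 h and 512 of 3163 at 8 h. Within them the log2 ratios of 8 h to 4 h were -0.30 (-0.55 to -0.06) for ICOS and -0.48 (-0.81 to -0.19) for CTLA4. Those of 8 h to 2 h were -0.24 (-0.50 to -0.01) and -0.22 (-0.55 to 0.07). At 2 h CD28 had 66.2 CPM in these nuclei and 12.7 in the 838 nuclei without these counts, ICOS 44.7 and 10.1, and CTLA4 27.2 and 16.1. TIGIT went the other way at 2 h, with 5.45 (4.49–6.56) and 10.8 CPM (7.26–15.6), and at 4 h had 7.63 and 5.41 with overlapping intervals. Nuclei with T cell gene counts were deeper, with medians of 8620 and 2455 counts at 2 h, which the rule itself favours.

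**Figure D5:**
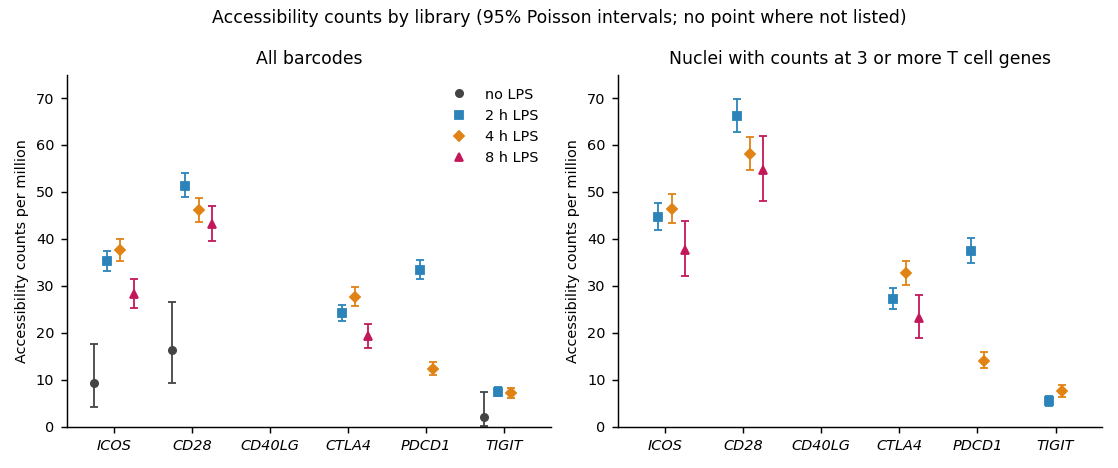
Accessibility of each gene by library in CPM (counts scaled to a total of 1e6), over all barcodes and over nuclei with counts at 3 or more T cell genes, with 95% Poisson intervals and no point where a gene is not listed. PDCD1 goes from 33.4 at 2 h to 12.4 at 4 h over all barcodes and from 37.4 to 14.1 in the T cell gene nuclei.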

How the data were processed

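The scRNA-seq tables deposited by the authors hold counts of UMIs, unnormalized, and Cell Ranger and the build ARS-UCD1.2/bosTau9 are named in the submitters' processing notes. For scATAC-seq, the deposited values are counts per gene and barcode, without normalization and with a counting rule not given in the sources used here.

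Barcodes were kept where they had 200 to 3000 genes, a total of 200 or more UMIs and a mitochondrial share below 20%. Cells were assigned by marker UMIs without clustering. T cells with 2 or 3 class markers were left out, which removes some doublets, and no doublet caller was run. UMIs were summed per class and library and scaled to CPM. Intervals were exact (Poisson for levels, Clopper-Pearson for shares, conditional binomial for ratios), and log2 ratios used a pseudocount of 1 CPM, so they understate changes of low genes. Shares were taken after thinning each cell to 1000 UMIs. edgeR 4.0.16 (TMM) and DESeq2 1.42.0 size factors served as alternative scalings only, under R 4.3.3, with Python 3.11.15, numpy 2.4.6, scipy 1.17.1 and matplotlib 3.10.9 for the rest. The ratio step was tested on simulated data.

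All members are named. Of other lists, counts are given and at most 4 genes per list and comparison, those with the largest ratio among genes past the 2-fold rule, and for each member the 3 genes most like it. Members and lists were chosen with earlier results of these data known. TNFRSF14, CD160, LAIR1 and ICOSLG were not found by name.

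Alternatives were TMM and DESeq2 scaling, pseudocount, fold and UMI minimum, marker and CD3 minimum, cell limits, equal weight of cells, the deepest cells left out, thinning depth and, for scATAC-seq, at least 500 counts, barcodes with a count, and T cell gene nuclei. The minimum of 1000 UMIs per cell, the highest cells left out, the T cell gene nuclei and the splits of CD4 cells by LEF1, IL2RA and FOXP3 were added with the data in view. A result on 1 gene of the naive T cell list is not reported here.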

Additional observations from a re-analysis of the deposited data

Results flagged for a closer look

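Genes of the lists that were at least 2-fold higher than without LPS in a T cell class and at least 2-fold lower in another class of the same library are given here. The difference was not tested, since each treatment had 1 library. NR4A1, an early gene of the antigen receptor response, at 8 h had a log2 ratio of 1.80 in CD4 cells and -1.40 in CD8B cells. These rest on 27 UMIs in 6 CD4 cells at 8 h and on 32 UMIs in 8 CD8B cells without LPS, of which 1 cell held 17.

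TNFRSF4 at 4 h had log2 ratios of 1.90 in CD4 cells, 1.63 in WC1 cells and -1.55 in CD8B cells, and at 8 h 1.16 in WC1 cells and -1.04 in CD8B cells. Among CD8B cells without LPS a single cell held 32 of 57 TNFRSF4 UMIs, and with the highest cell of each library left out the CD8B ratios were -0.65 at 4 h and -0.22 at 8 h.

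TNFRSF9 at 4 h had 1.02 in CD4 cells and -1.44 in CD8B cells. In CD4 cells 13 of 16 UMIs at 4 h were in 1 cell, and the ratio without the highest cells was -0.06. In CD8B cells 13 of 26 UMIs without LPS were in 1 cell, and the ratio without the highest cells was -1.58.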

How the results depend on the processing

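No paired analysis was possible because each treatment had 1 library. Depth limits CD28, CD40LG and TIGIT in CD8B and WC1 cells, where a library held at most 8 UMIs of each. Counts of pairs at least 2-fold different from no LPS were 0, 0 and 0 higher and 1, 0 and 0 lower at 2 h, 4 h and 8 h. Higher pairs at 2 h were 1 with DESeq2 size factors, a fold of 1.5, at least 2 CD3 UMIs, no upper limit on genes, cells weighted equally, the deepest 5% of cells left out, or the highest cell of each member left out (chosen after the data were seen), and 2 with other class markers allowed or at least 2 class marker UMIs. Higher pairs at 4 h were 2 with a fold of 1.5 and 1 with no UMI minimum, at least 2 class marker UMIs, no upper limit on genes or cells weighted equally, and at 8 h 1 with a fold of 1.5 or no upper limit on genes. Lower pairs at 2 h were 2 with a fold of 1.5 or no UMI minimum, and 0 with a pseudocount of 5, a UMI minimum of 100, other class markers allowed, at least 2 class marker UMIs or no upper limit on genes. Lower pairs at 8 h were 3 with no UMI minimum and 1 with a fold of 1.5, other class markers allowed, at least 2 CD3 UMIs, no upper limit on genes, cells weighted equally, the deepest 5% of cells left out or the highest cells left out. TMM scaling, a mitochondrial limit of 10% and a minimum of 1000 UMIs per cell changed none of these counts. Among all genes, the share past the rule in either direction, over the 3 classes and 3 times, was 1.71% to 8.45% in the main setting. It was 7.47% to 24.4% with a fold of 1.5 and 1.72% to 18.8% with no UMI minimum. No upper limit on genes gave 2.16% to 11.7%, and at least 2 class marker UMIs gave 2.64% to 12.6%. Equal weight of cells gave 1.56% to 9.44%, a pseudocount of 5 gave 0.465% to 5.21%, and a UMI minimum of 100 gave 0.829% to 4.61%. The remaining settings gave 1.5% to 8.56%, and no share is given for the highest cells left out. The cause of the changes in the counts of pairs was not tested.

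PDCD1 in CD8B cells at 2 h ranged from -1.21 to -0.25 on the log2 scale, ICOS in WC1 cells at 2 h from 0.93 to 1.39 and CTLA4 in CD4 cells at 4 h from 0.35 to 1.21. Pairs whose share of cells lay above that of the B gate were 8, 7, 10 and 4 of 18 without LPS and at 2 h, 4 h and 8 h. Without thinning they were 11 at 2 h and 8 at 8 h, and with classes set from thinned UMIs 5, 5 and 2 without LPS, at 4 h and at 8 h. Pairs among CTLA4, ICOS and PDCD1 with co-detection intervals apart were 0 in each library and, without thinning, 2 without LPS and 1 at 4 h. Of 648 member ratios under alternatives, 637 lay within the counting interval of the ratio given, and no called value changed sign. In accessibility, the number of genes at least 2-fold lower was 1 of 5 at 4 h against 2 h in each alternative run. Nuclei with a count at CD3D, CD3E or CD3G could not be taken because none of these is listed.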
